A study of Mus musculus with 5 samples.

Results

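The 10 genes described here carry the insulin and insulin-like growth factor (IGF) signal from outside the cell to the nucleus. They were chosen by symbol and were all found in both matrices of the series, as 10 of 32285 genes. They are the insulin receptor gene Insr, the IGF receptor genes Igf1r and Igf2r, the ligand gene Igf1, the adaptor genes Irs1 and Irs2, the signaling genes Pik3r1 and Akt2, the transcription factor gene Foxo1 and the inhibitor gene Grb14. Nuclei were isolated from interscapular brown adipose tissue of male mice, after a homogenization meant to enrich brown adipocyte nuclei, and were sorted and sequenced with a 10x Genomics 3′ kit. One matrix holds 3-month-old control (WT) littermates, which carried either Ucp1-Cre or floxed STX4 alleles, and UCP1-STX4KO mice, which carried both. In the knockout mice, Cre driven by Ucp1 acts in cells that express Ucp1, so that STX4, a membrane fusion protein, is to be lost from brown adipocytes and not from the other cells of the tissue. The other matrix holds C57BL/6J mice of 2, 12 and 24 months. Each group is 1 library, and the study's methods give a number of mice without dividing them among the libraries.

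Insulin and IGF1 bind receptor tyrosine kinases, which phosphorylate the adaptors IRS1 and IRS2. These recruit PI3-kinase, whose lipid product activates AKT, and AKT then drives glucose uptake and lipid storage and keeps FOXO1 out of the nucleus. Brown adipocytes are among the most insulin-responsive cells of the body and take up much glucose when they make heat.

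The libraries within a matrix are told apart by the final digit of a barcode, called its suffix, which no label ties to a sample. No value below is therefore assigned to a genotype or an age, and with 1 library per group no test across mice was made. Libraries are named by matrix and suffix. Levels are CPM, the counts of a gene per 1000000 UMIs (unique molecular identifiers, each standing for a captured RNA molecule) summed over the nuclei of a class. The counts are of 3′ ends and are not scaled by length, so levels are compared within a gene. Brackets hold exact 95% intervals, which cover counting error only. "Higher" or "lower" as a call means a CPM ratio past 2-fold for classes, or past 1.5-fold for libraries and for Cyp2e1, wherever a library held 50 or more nuclei of the class. Beside each first count stands the share of all genes tested that passed the same rule.

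The 3-month matrix holds 20307 barcodes and the aging matrix 30000, of which 20307 and 27842 passed a minimum of 200 UMIs and 100 genes. Median UMIs per barcode were 5998 and 3284.5 for suffixes 1 and 2 of the 3-month matrix, and lay between 891 and 1719.5 in the aging matrix. Libraries of a matrix shared 23 and 99 barcode sequences, respectively. Nuclei were placed into classes by 9 lists of marker genes, a rule that used none of the 10 genes. Although the labels give the cell type as brown adipocytes, only 64.4% of the nuclei kept in the 3-month matrix (9277 and 3802 nuclei by suffix) and 6.89% in the aging matrix (785, 828 and 306 nuclei) were adipocyte by their markers. Endothelial nuclei made up 39.0% of the aging matrix. The rule placed 19.8% of the nuclei kept in the 3-month matrix and 40.1% of those in the aging matrix in no class. Of the adipocyte nuclei, 272 of 13079 and 67 of 1919 lay close to the limit that separates them from the next class. Stx4a, the gene targeted in the knockout, was at 59.4 [57.5–61.3] and 49.8 [47.0–52.8] CPM in the adipocyte nuclei of suffixes 1 and 2. The intervals did not overlap, and no genotype was read from them. The deleted exons are not given in the sources used here, and 3′ counts from outside a deleted part would not show the deletion.

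Adipocyte genes were also counted in nuclei of the other classes. The summed level of Ucp1, Cidea, Ppara and Kcnk3, brown adipocyte genes that the gate did not use, was 6279 CPM in adipocyte nuclei of the 3-month matrix and still 0.135 of that level in macrophage nuclei, 0.164 in stromal nuclei and up to 0.476 in T lymphocyte nuclei. For the aging matrix it was 6026 CPM in adipocyte nuclei, with ratios from 0.0221 in stromal nuclei to 0.131 in T lymphocyte nuclei. A member whose class-to-adipocyte ratio is no higher than that of these reference genes is read below as background in that class.

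**Figure D1:**
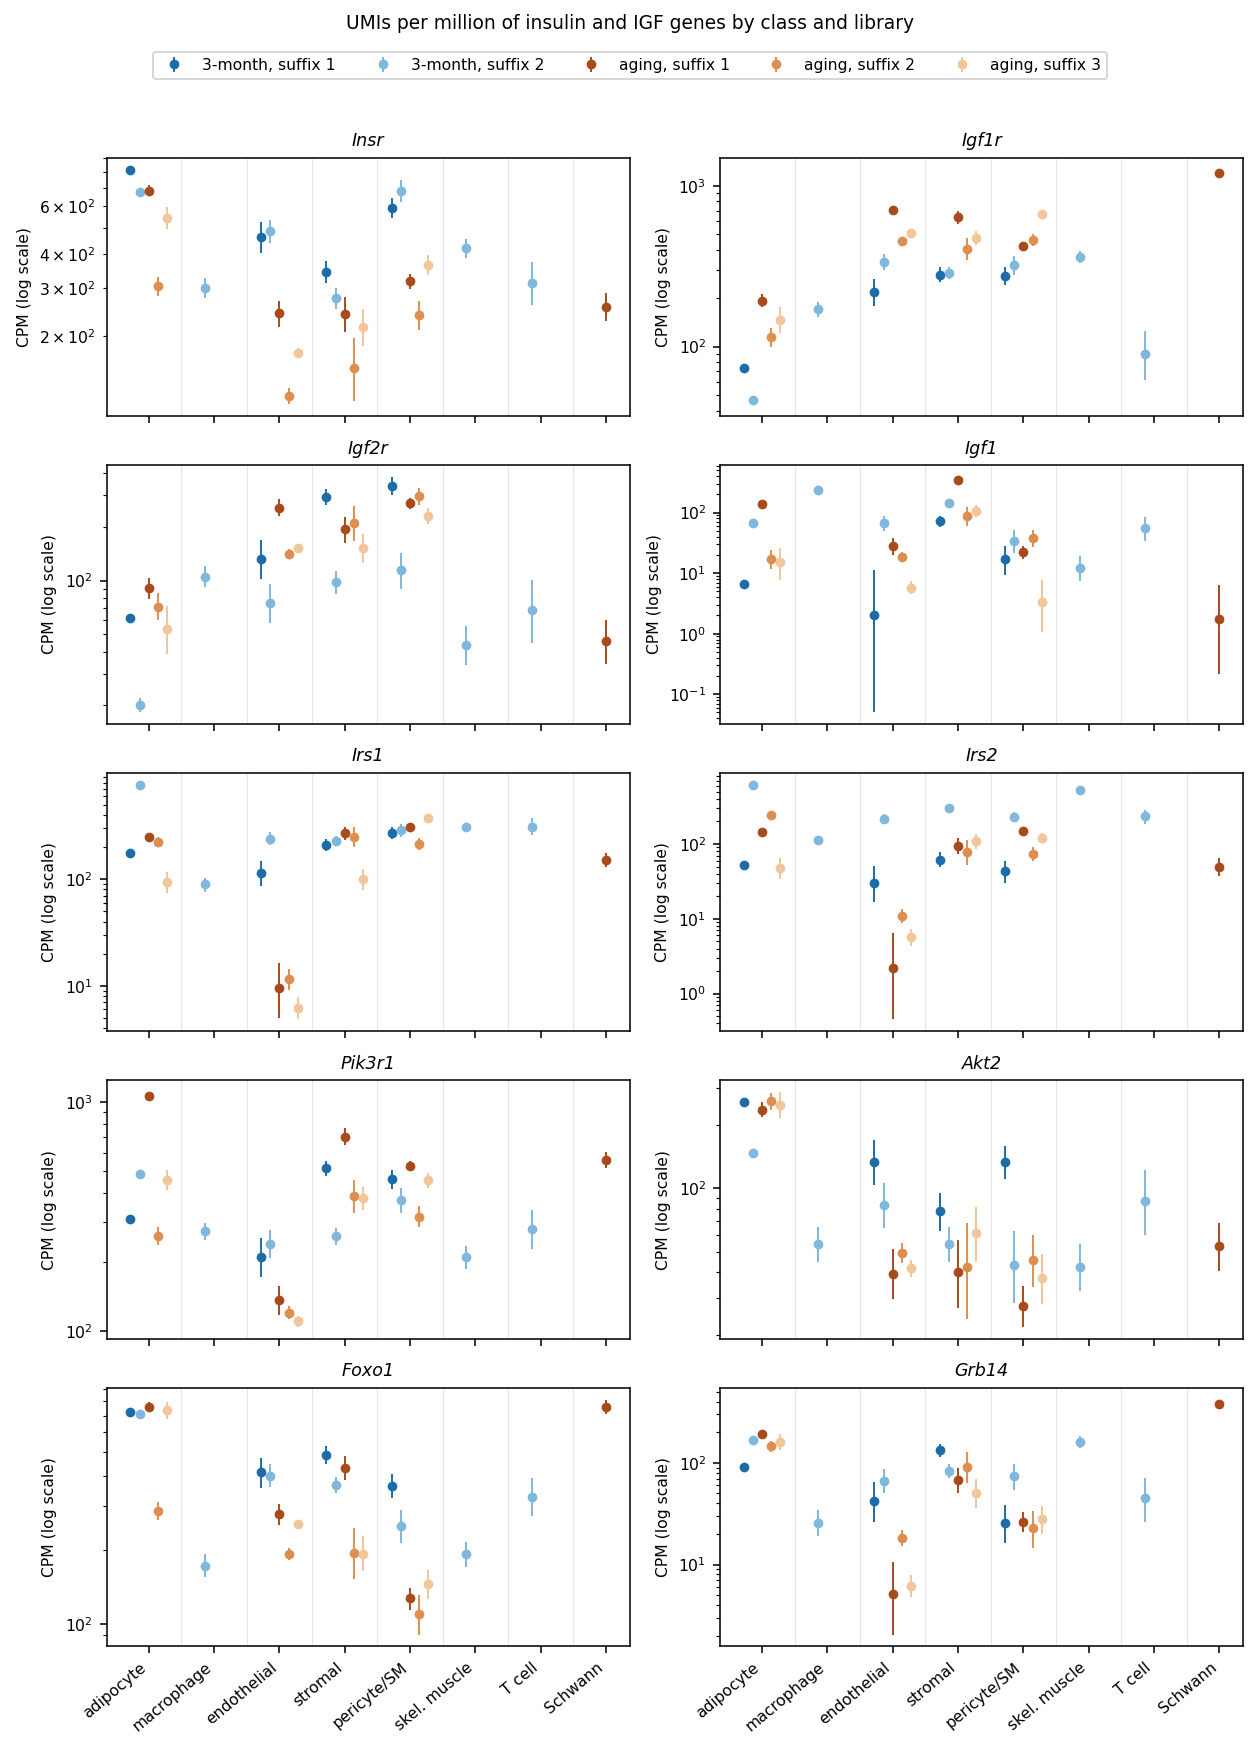
Level of each of the 10 genes in CPM (log scale) by class of nuclei, with 1 point per library and class of at least 50 nuclei. Bars are exact 95% Poisson intervals and cover counting error only. Akt2 is highest in the adipocyte class in every library, Igf1r is lowest there in each library, and Igf1r reaches 1200 CPM in the Schwann class of suffix 1 of the aging matrix.

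The receptors for insulin and for IGF1 had opposite patterns. Insr, which encodes the insulin receptor (chr8:3122061-3279617, minus strand, GRCm38), was at 812.2 and 678.7 CPM in the adipocyte nuclei of suffixes 1 and 2 of the 3-month matrix and at 684.0, 304.5 and 543.7 CPM in suffixes 1, 2 and 3 of the aging matrix. It was highest in adipocyte nuclei in 4 of 5 libraries, and suffix 2 of the 3-month matrix had 684.8 [622.7–751.5] CPM in pericyte or smooth muscle nuclei, an interval that holds the adipocyte level. Relative to all other gated nuclei, the adipocyte level was 1.75 and 1.80 times as high in the 3-month libraries and 2.44, 2.22 and 2.74 times in the aging libraries. In the aging matrix, the order after adipocyte nuclei (521.7 CPM) was pericyte or smooth muscle (314.4), Schwann (263.4), macrophage (232.5), stromal (212.8), endothelial (158.8) and T lymphocyte (104.7). The macrophage interval overlapped those of pericyte or smooth muscle, Schwann, stromal and T lymphocyte nuclei. Those of endothelial and T lymphocyte nuclei also overlapped.

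Igf1r, which encodes the IGF1 receptor kinase (chr7:67952827-68233668, plus strand), was at 73.5 and 46.6 CPM in adipocyte nuclei of the 3-month matrix and at 192.5, 114.7 and 146.2 CPM in those of the aging matrix. In each of the 5 libraries every other class plotted was above the adipocyte class. The adipocyte level was 0.279 and 0.171 of that in other gated nuclei in the 3-month libraries, and 0.295, 0.251 and 0.279 in the aging libraries. The highest level was in Schwann nuclei, the glia of peripheral nerve, with 1200 [1137–1265] CPM in suffix 1 of the aging matrix (499 nuclei), 1187 [993.6–1406] in suffix 2 (46 nuclei) and 970.2 [824.4–1134] in suffix 3 (43 nuclei). The 61 Schwann nuclei of the 3-month matrix had 540.2 [443.6–651.7] CPM. After each nucleus was thinned to 1000 UMIs, 66.3% of Schwann nuclei and 11.3% of adipocyte nuclei of suffix 1 of the aging matrix held an Igf1r UMI, against 83.2% and 25.9% unthinned. The thinning left out 48 and 68 shallower nuclei. Schwann nuclei of that library also held stromal reference genes (Col6a3, Bicc1 and Abca8a) at 0.789 of the stromal level, while the stromal nuclei themselves had 635.3 CPM of Igf1r. Stromal, endothelial and pericyte or smooth muscle nuclei of the aging matrix had overlapping intervals at 524.8, 500.8 and 495.4 CPM.

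Igf2r encodes a receptor without kinase activity that binds IGF2 and mannose 6-phosphate and carries both to lysosomes (chr17:12682406-12769664, minus strand). It was at 61.7 and 20.2 CPM in adipocyte nuclei of the 3-month matrix and at 90.4, 71.5 and 53.7 CPM in those of the aging matrix. Pericyte or smooth muscle nuclei held the most in each library, with 339.6 and 113.9 CPM and then 271.0, 297.0 and 229.9 CPM, and none of these intervals overlapped that of the adipocyte nuclei of the same library. They did overlap those of stromal nuclei in both 3-month libraries, of endothelial, macrophage, T lymphocyte and Schwann nuclei in suffix 2 of the 3-month matrix, and of endothelial nuclei in suffix 1 of the aging matrix. The antisense gene Airn overlaps Igf2r. Whether counting used strand is not given in the sources used here, so Igf2r counts can include Airn.

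Igf1, the ligand of IGF1R (chr10:87858265-87937042, plus strand), was highest in macrophage and stromal nuclei. Macrophage nuclei had 235.9 [214.9–258.3] CPM in suffix 2 of the 3-month matrix and 232.5 [171.4–308.3] CPM over the 101 macrophage nuclei of the aging matrix. Stromal nuclei, which were gated by Pdgfra and collagen genes, had 72.8 and 146.3 CPM in the 3-month matrix and 343.6, 86.6 and 106.2 CPM in the aging matrix. In the pooled aging matrix the macrophage and stromal intervals overlapped. Adipocyte nuclei ranged from 6.62 [6.01–7.27] CPM in suffix 1 of the 3-month matrix to 138.7 [124.2–154.5] CPM in suffix 1 of the aging matrix, with 67.5, 17.1 and 15.0 CPM in the remaining libraries. Suffix 2 of the 3-month matrix and suffix 1 of the aging matrix thus stood above the other 3 libraries, without overlap of their intervals.

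Markers of the cells that are rich in Igf1 were far lower in adipocyte nuclei than Igf1 was. In suffix 2 of the 3-month matrix, adipocyte nuclei held 0.286 of the macrophage level of Igf1 but 0.0232 of the macrophage level of Ptprc, Lyz2, Msr1 and Dock2 summed. They held 0.462 of the stromal level of Igf1 but 0.0282 of that of the stromal reference genes. In suffix 1 of the aging matrix the stromal ratios were 0.404 for Igf1 and 0.0370 for the reference genes. In Schwann nuclei of the aging matrix Igf1 was at 1.42 [0.172–5.13] CPM, from 2 UMIs in 588 nuclei. In suffix 2 of the 3-month matrix, endothelial nuclei held 0.987 [0.742–1.29] of the adipocyte level of Igf1. That was 0.283 of the macrophage level, beside 0.0689 for the macrophage reference genes. T lymphocyte nuclei held 0.234 of the macrophage level of Igf1, pericyte or smooth muscle nuclei 0.144 and skeletal muscle nuclei 0.0522. Whether the adipocyte Igf1 is in part a level shared by classes was not tested.

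Irs1 and Irs2 encode the insulin receptor substrates, the docking proteins through which the activated receptor recruits PI3-kinase. With Igf1, they were the members that differed most between the 3-month libraries. Over 24 combinations of class and library Irs1 was the gene whose pattern was most like that of Irs2 among 10143 genes (Pearson r = 0.849 of log2(CPM + 5), given as a description since the points share libraries). Irs2 was not among the 3 genes most like Irs1, which were Bmpr1a, Zfhx3 and Pde1a. Because Irs1 ranked first for Irs2, the 250 bases before each transcription start are shown here, from RefSeq on GRCm38.p6. Irs1 lies at chr1:82233101-82291416 on the minus strand, with the stretch shown at chr1:82291440-82291689, and Irs2 lies at chr8:10984681-11008458 on the minus strand, with the stretch shown at chr8:11008930-11009179. Capitals mark the E-box CACGTG and the FOXO core TGTTT, searched on both strands, which overlap in Irs1.
Irs1: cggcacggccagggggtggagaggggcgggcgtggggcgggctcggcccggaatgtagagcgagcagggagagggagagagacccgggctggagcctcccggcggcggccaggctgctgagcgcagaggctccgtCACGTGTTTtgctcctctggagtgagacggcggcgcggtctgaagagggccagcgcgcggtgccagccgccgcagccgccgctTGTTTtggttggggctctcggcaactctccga
Irs2: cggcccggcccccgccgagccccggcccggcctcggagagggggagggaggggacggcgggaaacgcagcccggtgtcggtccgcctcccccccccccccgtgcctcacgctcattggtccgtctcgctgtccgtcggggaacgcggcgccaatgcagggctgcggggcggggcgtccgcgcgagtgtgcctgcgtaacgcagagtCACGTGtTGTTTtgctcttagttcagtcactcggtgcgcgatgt

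Both stretches are rich in G and C (72.4% and 72.8%). The E-box begins 115 bases before the start in Irs1 and 44 bases before it in Irs2, and a FOXO core lies beside it, 111 and 37 bases before the start. The longest runs that the pair shares are gtcacgtgtt and tgttttgctc, of 10 bases each, which 23 and 21 of 32851 promoters hold on either strand. Among all promoters of this length, 6.02% hold the E-box, 46.4% the FOXO core and 2.37% both. Of the 9 members with an entry (Insr has none), the E-box was found in Igf2r, Irs1 and Irs2 and the core in Igf1, Irs1, Irs2, Akt2 and Foxo1. Neither the longer FOXO site TGTTTAC (3.17% of promoters) nor the cAMP response element TGACGTCA (1.55%) was found in a member. These matches describe letters and not binding.

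Irs1 was at 176.7 and 757.9 CPM in adipocyte nuclei of suffixes 1 and 2 of the 3-month matrix and at 245.4, 223.4 and 93.7 CPM in those of the aging matrix. Pericyte or smooth muscle nuclei of the aging matrix had 309.2, 213.2 and 374.5 CPM, above adipocyte nuclei in suffixes 1 and 3 and with overlapping intervals in suffix 2. Irs2 was at 52.3 and 613.9 CPM and then at 145.4, 244.8 and 47.5 CPM in adipocyte nuclei. It was also high in skeletal muscle nuclei of suffix 2 of the 3-month matrix, with 529.8 [493.2–568.5] CPM in 281 nuclei. Endothelial nuclei of the aging matrix had 8.34 CPM of Irs1 and 7.32 CPM of Irs2, which are 0.0391 and 0.0439 of the adipocyte level and below the 0.0582 of the adipocyte reference genes. By library, suffix 1 had 0.0386 for Irs1 beside 0.0151 for the reference genes, and 2.19 CPM of Irs2 (3 UMIs), a ratio to adipocyte nuclei no higher than that of the reference genes. Suffix 2 had 0.0516 and 0.0448 beside 0.0921 for the reference genes, while suffix 3 had 0.0663 and 0.120 beside 0.0381. Endothelial Irs1 was thus within background in suffix 2 alone, and endothelial Irs2 in suffixes 1 and 2.

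Pik3r1, which encodes the p85α regulatory subunit of PI3-kinase (chr13:101680563-101768217, minus strand), was at 309.3 and 483.4 CPM in adipocyte nuclei of the 3-month matrix and at 1062, 261.3 and 457.5 CPM in those of the aging matrix. Suffix 1 of the aging matrix was the highest and suffix 2 of that matrix the lowest. Schwann, stromal and pericyte or smooth muscle nuclei of the pooled aging libraries had overlapping intervals at 510.5, 510.1 and 464.8 CPM, and endothelial nuclei were lowest at 115.8 CPM.

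Akt2, the AKT kinase gene with the largest known part in insulin-driven glucose uptake (chr7:27591552-27640826, plus strand), was the only member more than 2 times as high in adipocyte as in other gated nuclei in each of the 5 libraries. It was at 256.4 and 147.1 CPM in the 3-month libraries and at 236.2, 258.6 and 248.7 CPM in the aging libraries, where the adipocyte intervals of all 3 overlap. The ratio to other gated nuclei was 2.15 and 2.58 in the 3-month matrix and 6.28, 5.26 and 5.93 in the aging matrix. With the aging libraries pooled, no other class was above 63.0 CPM. In the pooled 3-month matrix endothelial nuclei held 0.448 [0.376–0.530] of the adipocyte level beside 0.455 for the reference genes. By library the values were 0.522 beside 0.634 in suffix 1 and 0.566 [0.440–0.718] beside 0.381 in suffix 2. Endothelial Akt2 was thus within background in suffix 1 and above it in suffix 2.

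Foxo1 (chr3:52268336-52353221, plus strand) encodes the transcription factor that AKT excludes from the nucleus. Its adipocyte levels were 726.9 and 711.5 CPM in the 3-month matrix and 755.3, 286.9 and 735.0 CPM in the aging matrix, so that 4 libraries lay close together and suffix 2 of the aging matrix lay far below them. Schwann nuclei had 758.9 [709.1–811.4] CPM against 755.3 [720.9–790.9] in adipocyte nuclei of suffix 1 of the aging matrix, 446.1 [331.1–588.1] against 286.9 in suffix 2 and 457.3 [359.1–574.1] against 735.0 in suffix 3. Which of the classes held more Foxo1 therefore depended on the library. Pericyte or smooth muscle nuclei were lowest in the pooled aging libraries, at 128.2 CPM.

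Grb14 (chr2:64912476-65024987, minus strand) encodes an adaptor that binds the activated insulin receptor and blocks its kinase. It was at 92.1 and 167.4 CPM in adipocyte nuclei of the 3-month matrix and at 191.2, 145.1 and 160.0 CPM in those of the aging matrix. Schwann nuclei again held more, with 379.9 [344.9–417.5] CPM in suffix 1 of the aging matrix, 392.6 [285.2–527.0] in suffix 2 and 265.7 [192.3–357.9] in suffix 3. None of these 3 intervals overlapped that of the adipocyte nuclei of the same library. Endothelial nuclei of the aging matrix had 10.5 CPM and macrophage nuclei 4.84 [0.123–27.0] CPM.

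**Figure D2:**
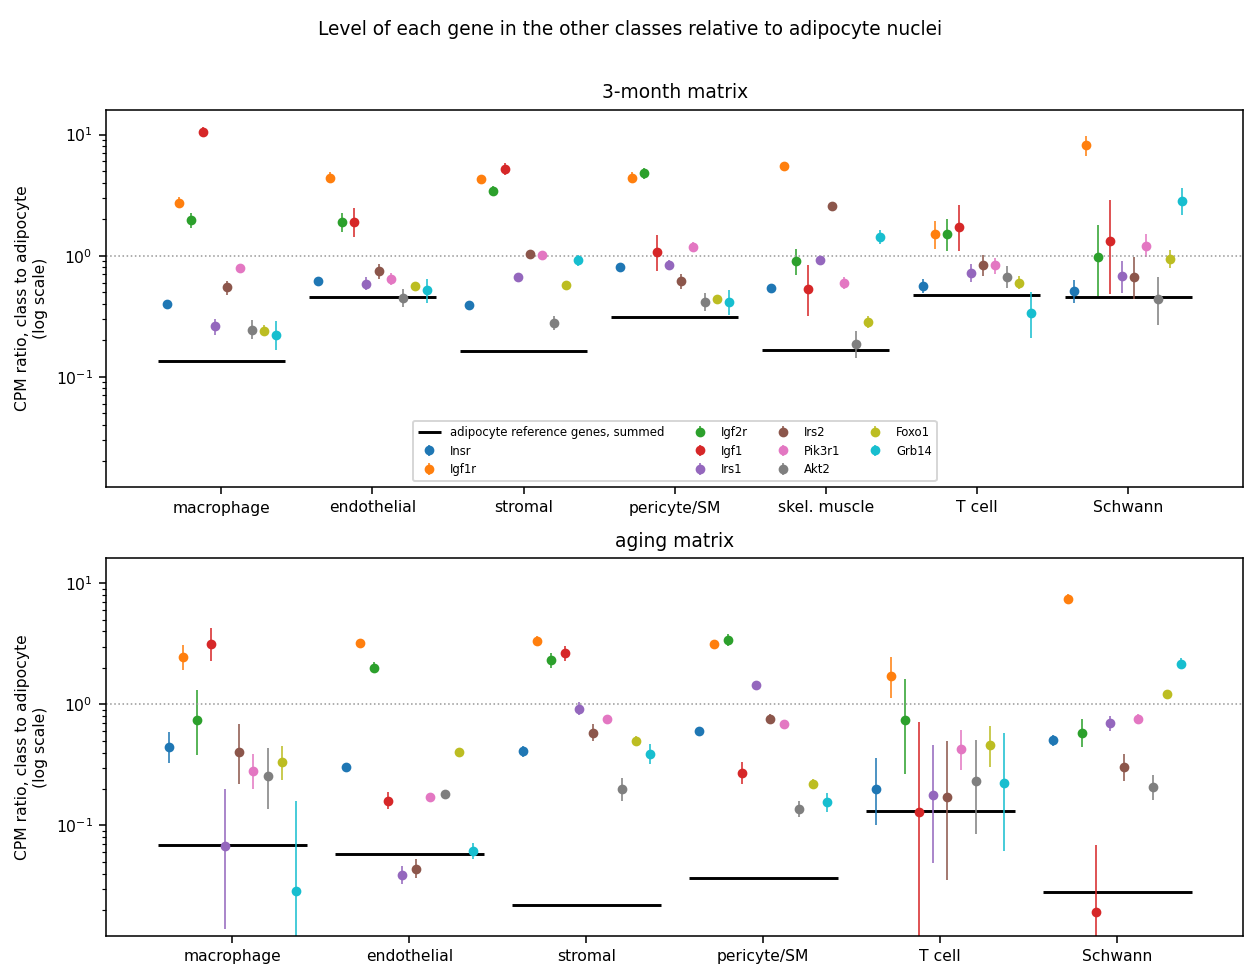
CPM ratio of each class to adipocyte nuclei (log scale) for the 10 genes, over the pooled libraries of each matrix, with exact 95% intervals as bars, some of which run below the axis. The black line gives the same ratio for the summed adipocyte reference genes. Endothelial Akt2 lies at the line in the 3-month matrix (0.448 against 0.455), and endothelial Irs1 and Irs2 lie under it in the aging matrix.

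By the 2-fold rule, adipocyte nuclei of the 3-month matrix had 1 member higher (Akt2) where 4.89% of the 12920 genes tested were higher, and 2 members lower (Igf1r and Igf2r) where 16.1% were lower. In the aging matrix 3 members were higher (Insr, Akt2 and Grb14; 10.6% of 10790 genes) and 2 lower (Igf1r and Igf2r; 15.5%). The call of Akt2 in the 3-month matrix was lost with graph clusters in place of the gate (pooled ratio 2.73, against 3.02). That of Grb14 in the aging matrix was lost without the 8% deepest nuclei (4.51, against 4.88), with at least 1000 UMIs (4.83) and with a lead of 1.5 times (4.48). That of Igf2r in the aging matrix was lost with nuclei thinned to 1000 UMIs (0.450, against 0.452), where at least 1 library did not pass. The nuclei that adipocyte nuclei are set against are mostly endothelial in suffixes 2 and 3 of the aging matrix and mixed in the 3-month matrix. In suffix 1 of the aging matrix they are mixed too, with 1503 endothelial, 1458 pericyte or smooth muscle and 499 Schwann nuclei. The ratios are therefore not to be compared between matrices or between the aging libraries. Each other class of the 3-month matrix is set against nuclei that are mostly adipocyte. Its calls below therefore depend largely on the adipocyte level. All 10 members passed the minimum of 200 UMIs in both matrices.

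Macrophage nuclei of the 3-month matrix had 2 members higher (Igf1 and Igf2r; background 18.0%) and 6 lower (Insr, Irs1, Irs2, Akt2, Foxo1 and Grb14; 25.1%). Skeletal muscle nuclei had 1 member higher (Igf1r; 10.3%) and 5 lower (Igf1, Irs1, Pik3r1, Akt2 and Foxo1; 37.3%). T lymphocyte nuclei had 0 members higher (16.4%) and 3 lower (Irs1, Irs2 and Grb14; 19.8%). These 3 classes rest on suffix 2 alone, since suffix 1 held fewer than 50 nuclei of each. The intracellular members, apart from Pik3r1, were thus all lower in macrophage nuclei.

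Igf1r was higher in the vascular and stromal classes of the 3-month matrix, in both libraries. The nuclei they are set against are mostly adipocyte, so the calls of Igf1r and Igf2r here largely repeat the low adipocyte level. Endothelial nuclei had 1 member higher (Igf1r; 8.34%) and 1 lower (Grb14; 5.33%). Stromal nuclei had 2 higher (Igf1r and Igf2r; 10.2%) and 2 lower (Insr and Akt2; 12.2%), and pericyte or smooth muscle nuclei had 2 higher (Igf1r and Igf2r; 8.95%) and 1 lower (Grb14; 10.3%). Endothelial nuclei of the aging matrix had 0 higher (7.41%) and 5 lower (Irs1, Irs2, Pik3r1, Akt2 and Grb14; 16.5%). Stromal nuclei had 1 higher (Igf1; 5.06%) and 0 lower (9.43%), and pericyte or smooth muscle nuclei had 0 in either direction (5.89% higher and 10.3% lower). Schwann nuclei, from suffix 1 alone, had 2 higher (Igf1r and Grb14; 11.2%) and 3 lower (Igf2r, Igf1 and Irs2; 27.4%).

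Between the libraries of the 3-month matrix, the adaptor genes and Igf1 differed most, and Insr and Foxo1 least. The CPM ratio of suffix 2 to suffix 1 in adipocyte nuclei was 11.7 [11.3–12.2] for Irs2, 10.2 [9.17–11.4] for Igf1, 4.29 [4.19–4.39] for Irs1, 1.82 [1.75–1.89] for Grb14 and 1.56 [1.53–1.60] for Pik3r1. It was 0.327 [0.297–0.360] for Igf2r, 0.574 [0.553–0.595] for Akt2 and 0.634 [0.593–0.677] for Igf1r, while Insr (0.836) and Foxo1 (0.979) stayed within 1.5-fold. Thus 5 members were higher in suffix 2 where 16.6% of genes were, and 3 were lower where 37.7% were. Among adipocyte nuclei without Cyp2e1 UMIs (described below), the ratio was 0.902 [0.870–0.934] for Pik3r1 and 0.726 [0.671–0.785] for Igf1r, both within 1.5-fold. The other called members stayed past 1.5-fold in the same direction there. Irs2 was also higher in suffix 2 in other classes, with ratios of 4.86 [3.82–6.25] in stromal and 5.38 [3.75–7.90] in pericyte or smooth muscle nuclei. In these classes Irs2 was above the background set by the summed adipocyte reference genes in both libraries (stromal 1.18 beside 0.229 in suffix 1 and 0.487 beside 0.134 in suffix 2, pericyte or smooth muscle 0.820 beside 0.373 and 0.376 beside 0.236). In pericyte or smooth muscle nuclei of suffix 2, however, Irs2 lay within the span of the single reference genes, 0.186 to 0.393. In endothelial nuclei it was within background in both libraries (0.582 beside 0.634 and 0.353 beside 0.381), so no library difference is read there. Irs1 had ratios of suffix 2 to suffix 1 of 1.10 and 1.07 in stromal and pericyte or smooth muscle nuclei, and Igf2r had 0.333 and 0.335. Whether the libraries differ by genotype, mouse, dissection or sequencing cannot be told apart.

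Adipocyte nuclei of suffix 2 of the aging matrix had 0.445 of the Insr level, 0.380 of the Foxo1 level and 0.246 of the Pik3r1 level of suffix 1, and 1.68 times its Irs2 level. Adipocyte nuclei of suffix 3 had 0.382 of the Irs1 level and 0.327 of the Irs2 level of suffix 1, with Foxo1 at 0.973 [0.885–1.07]. Akt2 and Grb14 were within 1.5-fold in all 3 pairs of libraries. Igf1 in suffixes 2 and 3 was at 0.123 and 0.108 of its level in suffix 1.

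**Figure D3:**
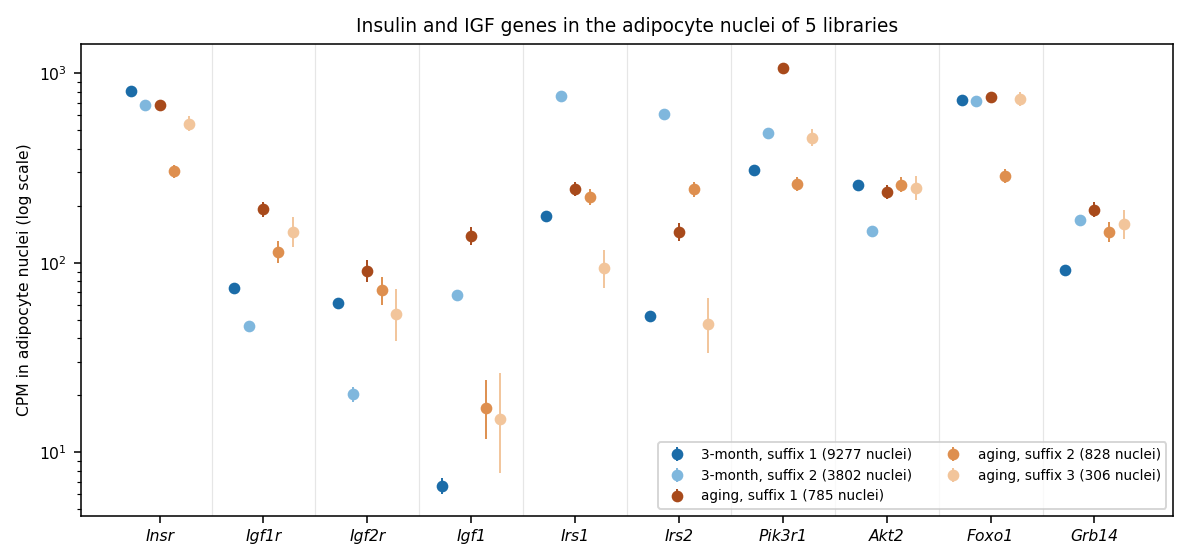
Level of the 10 genes in adipocyte nuclei of the 5 libraries in CPM (log scale), with exact 95% Poisson intervals as bars. Irs1 and Irs2 stand highest in suffix 2 of the 3-month matrix (757.9 and 613.9 CPM), and Igf1 spans 6.62 to 138.7 CPM.

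Cyp2e1 encodes a cytochrome P450 that oxidizes ethanol and other small molecules and has been used to mark a subset of brown adipocytes. A Cyp2e1 UMI was found in 201 of 9277 adipocyte nuclei (2.17%) of suffix 1 and in 1362 of 3802 (35.8%) of suffix 2 of the 3-month matrix. The aging libraries had 45, 8 and 7 such nuclei (5.73%, 0.966% and 2.29%), too few for a call. In suffix 2 of the 3-month matrix 13.9% of endothelial nuclei (median 1367 UMIs, against 5185 in adipocyte nuclei) also held a Cyp2e1 UMI, as did 18.6% of T lymphocyte (median 1550 UMIs), 14.5% of stromal and 14.2% of skeletal muscle nuclei, shares that are read as background. With at least 2 UMIs the shares were 21.0% of adipocyte nuclei and at most 3.15% (endothelial) of another class with 50 or more nuclei.

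Igf1 was the member called higher in adipocyte nuclei with Cyp2e1 UMIs. It was at 34.5 CPM with and 5.80 CPM without them in suffix 1 (ratio 5.94 [4.49–7.75]) and at 88.8 and 52.4 CPM in suffix 2 (1.69 [1.53–1.87]). Of all genes 3.74% were called higher, and 0 members were called lower where 2.34% of genes were. Among adipocyte nuclei of suffix 1 of the aging matrix, 45 nuclei with Cyp2e1 UMIs had 495.5 CPM of Igf1 and the remaining 740 had 97.9 CPM (5.06 [4.01–6.35]). Macrophage gate markers were also higher in the nuclei with Cyp2e1 UMIs (1.98 and 1.59 times in suffixes 1 and 2 of the 3-month matrix), while the macrophage reference genes were lower (0.715 [0.285–1.49] and 0.821 [0.728–0.926]). Stromal reference genes were at 2.01 and 1.11 times in these libraries, and stromal gate markers at 1.79 and 1.09 times and at 2.11 times in suffix 1 of the aging matrix. Adipocyte reference genes were at 0.859 and 0.471. When adipocyte nuclei with any macrophage or stromal marker UMI were left out, a check chosen after seeing the data, 1 member was called higher, again Igf1.

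The size of the difference with Cyp2e1 varied by library for other members. Pik3r1 was at 774.9 CPM with and 276.1 CPM without Cyp2e1 UMIs in suffix 2 (2.81 [2.70–2.92]), and at 413.1 and 306.2 CPM in suffix 1 (1.35 [1.25–1.45]). Grb14 was lower with Cyp2e1 UMIs in both, with ratios of 0.784 [0.657–0.928] and 0.566 [0.528–0.607]. Irs2 was at 382.0 and 778.8 CPM in suffix 2 (0.490 [0.472–0.509]) and at 52.5 and 52.3 CPM in suffix 1, where the interval of the ratio was 0.814 to 1.23. It was 2.20 [1.66–2.86] times as high in suffix 1 of the aging matrix. Irs1 ratios were 1.89 [1.74–2.05] and 1.26 [1.22–1.30]. Insr, Akt2 and Foxo1 had ratios between 0.905 and 1.10 in both 3-month libraries, and Igf1r and Igf2r were at 0.693 and 0.677 in suffix 2 but at 0.988 and 0.980 in suffix 1.

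The levels were graded by the number of Cyp2e1 UMIs in suffix 2 of the 3-month matrix. From 0 over 1 and 2 to 4 to at least 5 UMIs, Pik3r1 was at 276.1, 448.0, 871.0 and 1018 CPM, and Irs2 was at 778.8, 657.1, 273.8 and 198.8 CPM. Grb14 was at 204.2, 161.6, 115.7 and 71.0 CPM, and Igf1 at 52.4, 61.2, 96.4 and 109.7 CPM. Ucp1 went along with Irs2 and Grb14, at 1125, 927.4, 336.6 and 183.5 CPM. The median depth of these nuclei was 4610 UMIs at 0 and 7537 UMIs at 5 or more, and with each nucleus thinned to 1000 UMIs the ratios with against without Cyp2e1 were 2.44 [2.19–2.71] for Pik3r1 and 0.404 [0.342–0.474] for Irs2. In suffix 1, with 22 nuclei at 5 or more UMIs, Igf1 was at 5.80, 16.2, 65.2 and 73.6 CPM and Grb14 at 92.7, 86.6, 50.3 and 41.6 CPM.

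**Figure D4:**
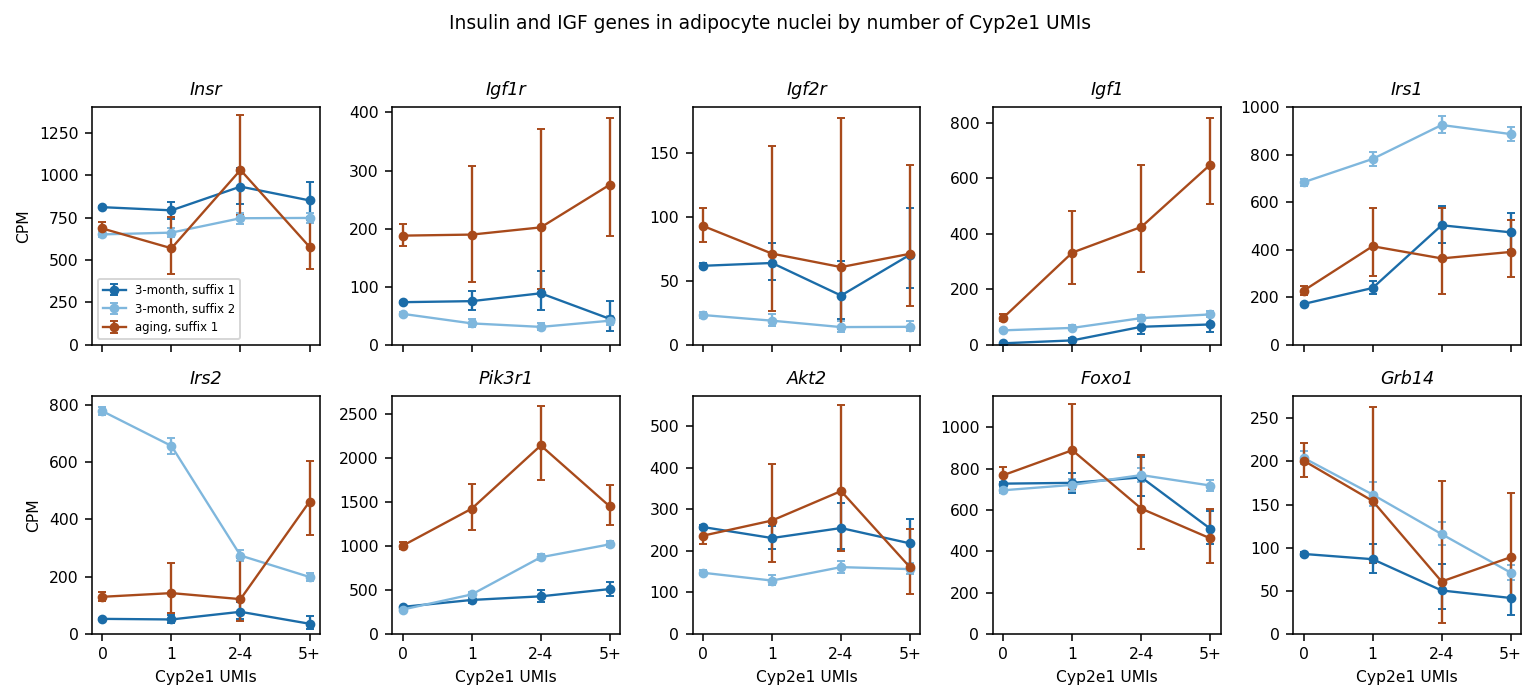
Level of the 10 genes in CPM in adipocyte nuclei grouped by their number of Cyp2e1 UMIs, for suffixes 1 and 2 of the 3-month matrix and suffix 1 of the aging matrix, with exact 95% Poisson intervals as bars. In suffix 2 of the 3-month matrix Pik3r1 goes from 276.1 to 1018 CPM and Irs2 from 778.8 to 198.8 CPM, while Foxo1 stays between 695.6 and 769.2 CPM. From 0 to 5 or more UMIs, Foxo1 goes from 727.7 to 509.0 [432.9–594.5] CPM in suffix 1 of the 3-month matrix (22 nuclei). In suffix 1 of the aging matrix it goes from 768.7 to 462.3 [345.3–606.2] CPM (12 nuclei).

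Of 52 other genes of the pathway, 43 in the 3-month matrix and 44 in the aging matrix passed the minimum of 200 UMIs. In adipocyte nuclei of the 3-month matrix, 2 were higher, Sh2b2 (3.53 times the level of other gated nuclei), an adaptor of the insulin receptor, and Pde3b (2.46 times), the phosphodiesterase by which insulin restrains lipolysis. For the aging matrix 9 were higher, led by Sh2b2 (23.2 times), Pde3b (22.8), the adaptor gene Irs3 (10.8) and Tbc1d4 (9.44), which encodes an AKT substrate that controls glucose transporter traffic. The lower genes were 9 and 10 in number. Of all genes tested, 4.89% were higher and 16.1% lower in the 3-month matrix, and 10.6% and 15.5% in the aging matrix. Among those furthest below other nuclei were Inpp5d (0.0229), Igfbp3 (0.0286) and Pappa (0.0343) in the 3-month matrix and Socs3 (0.153), Slc2a1 (0.167) and Grb10 (0.185) in the aging matrix. The IGF-binding proteins and their regulators had 4 of 5 genes lower in the 3-month matrix and 3 of 6 in the aging matrix, with 0 higher. Of 8 adaptors, 1 and 3 were higher and 0 lower. Of 10 inhibitors in the 3-month matrix, 0 were higher and 3 lower. Of 9 in the aging matrix, 2 were higher and 3 lower. Among Schwann nuclei of suffix 1 of the aging matrix 4 of the 44 genes were higher and 15 lower, where 11.2% and 27.4% of all genes tested were.

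**Figure D5:**
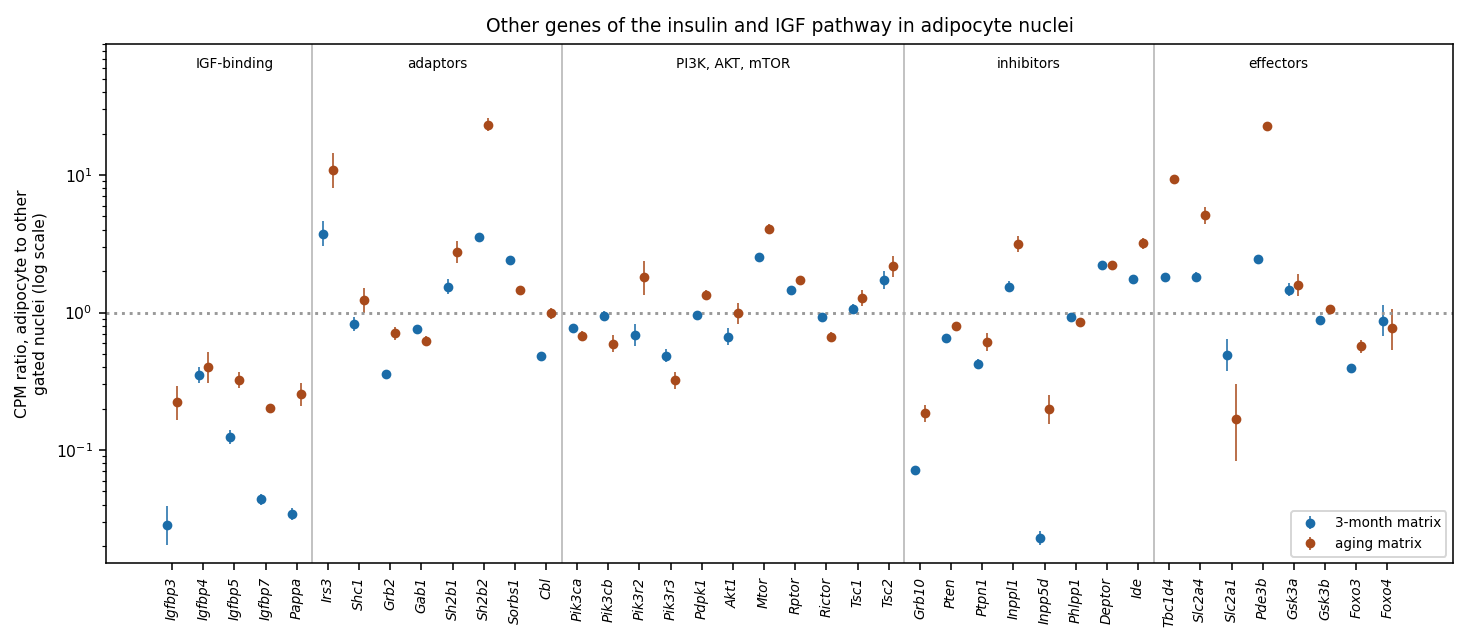
CPM ratio of adipocyte nuclei to other gated nuclei (log scale) for 40 other pathway genes with enough UMIs in both matrices, pooled over libraries, with exact 95% intervals as bars. Inpp5d is lowest in the 3-month matrix at 0.0229, and Sh2b2 and Pde3b are highest in the aging matrix at 23.2 and 22.8.

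The genes whose levels went most like those of a member over the 24 combinations of class and library were named by rank of Pearson r, as a description. Akt2 was closest to Xrcc6 (0.957), Gnpat (0.948) and Acot11 (0.946), and Insr to Tmem135 (0.886), Zkscan3 (0.885) and Gm26944 (0.875). Igf1r was closest to Mb21d2 (0.976), Tmcc2 (0.891) and Laptm4a (0.878), and Igf2r to Gm49959 (0.905), Airn (0.880) and Colgalt2 (0.871). For Igf1 they were Sp140 (0.817), Adam33 (0.811) and Rassf2 (0.790), for Irs1 Bmpr1a (0.878), Zfhx3 (0.863) and Pde1a (0.853), and for Irs2, Irs1 (0.849) and Apex2 (0.821). Pik3r1 was closest to Acadsb (0.812), Pard3 (0.803) and Kiz (0.779), Foxo1 to Ivns1abp (0.848), Gm30173 (0.825) and Pcsk6 (0.815), and Grb14 to Col27a1 (0.875), Sgcd (0.871) and Dpyd (0.854).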

How the data were processed

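The authors deposited raw UMI counts per gene and barcode in 2 matrices, with 2 libraries in the 3-month matrix and 3 in the aging matrix. Reads were aligned to mouse mm10 with Cell Ranger 6.1.2, and the submitters' processing notes also name Seurat 4.1.0. The annotation release and whether introns were counted are not given in the sources used here. Here UMIs were summed by class and barcode suffix and divided by the class total and multiplied by 1000000 (CPM) (Python 3.11.15, numpy 2.4.6, scipy 1.17.1, pandas 2.3.3). The filter that the methods state, 200 to 2000 UMIs and 100 to 3000 genes, leaves 0 and 2763 nuclei of the 3-month libraries, so only its lower limits were used. A nucleus took the class of the marker list with the highest share relative to the 1% of nuclei richest in that list, given at least 3 UMIs from 2 markers and a lead of 2 times over the next list. Genes tested had at least 200 UMIs. Intervals are exact Poisson for CPM, Clopper-Pearson for shares and conditional binomial for ratios, at 95%. Nuclei are not replicates and no p-value was computed. Doublets were not called, and leaving out the 8% deepest nuclei was an alternative. Graph clusters (leidenalg 0.10.2), 15 and 17, gave the class of the gate for 98.3% and 97.4% of nuclei classed by both. Positions are from a GRCm38 annotation and promoters from RefSeq. The members and lists were chosen with earlier results of these data known. All 10 members, Cyp2e1, markers, the 4 pathway genes furthest up and down among those called in adipocyte nuclei, and the 3 genes most like each member were named. Some items among these genes are not reported here.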

Additional observations from a re-analysis of the deposited data

How the results depend on the processing

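Of the counts of calls recomputed under the alternatives, 112 stayed within 1.5 times and 25 did not. Of 560 recomputed ratios of single members, 350 stayed within the counting interval of the reported ratio and 210 did not. No ratio of a called member changed direction, but 23 ratios of members without a call lay on the other side of 1. Among them, the adipocyte ratio of Igf1 in the pooled aging matrix went from 2.79 to 0.693 with suffix 2 alone, that of Pik3r1 in the 3-month matrix from 1.14 to 0.738 with suffix 1 alone, and the Cyp2e1 ratio of Irs2 from 1.82 (libraries pooled) to 0.490 with suffix 2 alone. Under the stated range, which left suffix 2 only, the Cyp2e1 ratio of Akt2 was 1.98 [1.11–3.44]. Without that range it was 0.678 pooled and 0.905 in suffix 1, and in suffix 2 its interval was 0.936 to 1.07. The change from the pooled value is therefore in part a change of library. In the 3-month matrix, adipocyte nuclei had 3 members higher under the stated range of 200 to 2000 UMIs (suffix 2 only), 0 with graph clusters, 2 with nuclei thinned to 1000 UMIs, 5 with suffix 2 alone and 3 at 1.5-fold, against 1. The calls in other classes numbered 26, and 7 under the stated range, 12 with suffix 1 alone and 40 at 1.5-fold. Members higher with Cyp2e1 UMIs were 4 under the stated range, 2 after thinning, 2 (Igf1 and Pik3r1) at 2 or more Cyp2e1 UMIs, 2 with suffix 1 alone, 2 with suffix 2 alone and 0 at 2-fold, against 1. Members lower were 2 under the stated range, 3 after thinning, 1 (Grb14) at 2 or more UMIs and 2 with suffix 2 alone, against 0. The Cyp2e1 counts after thinning rest on suffix 2, since suffix 1 then held 47 nuclei with Cyp2e1 UMIs, too few for a call. In the aging matrix, members higher in adipocyte nuclei were 6 with suffix 1 alone, 5 with suffix 2 alone, 5 with suffix 3 alone and 6 at 1.5-fold, against 3. Thinning left 1 lower (Igf1r) of 2, and calls in other classes were 18 with suffix 1 alone and 20 at 1.5-fold, against 11. With a lead of 1.5 times the aging matrix had enough nuclei with Cyp2e1 UMIs for a call, and 4 members were higher with them (Igf1, Irs1, Irs2 and Pik3r1). A library used alone drops the demand that all libraries pass, and the other causes were not tested. The stated range left no suffix 1 nuclei in the 3-month matrix, so the libraries were not compared there. The exclusion of nuclei with macrophage or stromal marker UMIs was added after seeing the data. No paired analysis was possible because each group has 1 library.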
